A study of Homo sapiens with 12 samples.

Results

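Induction of a short hairpin RNA against RIP140 in MOLM14 cells without any other treatment was followed in 6 of the 12 libraries: 3 given doxycycline (DOX) and 3 untreated. These libraries were taken by their labels, and 16104 of 61487 annotated genes had enough counts to be tested. MOLM14 is an established human acute myeloid leukemia line of monocytic character with a KMT2A fusion. All cells compared carried the inducible hairpin construct and grew in serum free of tetracycline. The untreated group received nothing, and the DOX group received doxycycline at 50 ng/mL, renewed every other day. In the rest of the series, the retinoid ATRA (all-trans retinoic acid) was given at 1 µM over 48 h, alone or with DOX, the latter called the combined group here. The design text calls the 3 libraries of each group biological replicates; whether they came from separate cultures over time is not given in the sources used here, so p-values measure the spread between these samples. No group without the hairpin received DOX in this set, so loss of RIP140 and an effect of doxycycline or of hairpin expression itself cannot be told apart. In bulk RNA, fewer cells of a type and less RNA per cell cannot be told apart either.

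RIP140, the product of NRIP1, is a nuclear receptor coregulator. It binds ligand-activated receptors through short leucine-rich motifs and recruits deacetylases and other corepressors, and in fat, muscle and liver it restrains genes of oxidative metabolism. In macrophages it is also known as a coactivator of NF-kB target genes, and retinoids and estrogens are known to induce NRIP1 in other cells.

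The 6 libraries were uneven, and this bears on every count of changed genes. Gene counts summed, in units of 1e+06, to between 10.37 and 18.07 for untreated cells and, for DOX replicates 1, 2 and 3, to 12.23, 19.36 and 2.69. The first principal component, with 54.2% of the variance, ran from untreated replicate 3 at one end to DOX replicate 3 at the other, with DOX replicate 1 nearest the untreated libraries. The 2 mitochondrial ribosomal RNA genes held 2.54, 2.85 and 4.60% of counts in the untreated libraries and 2.18, 1.02 and 1.30% in the DOX libraries, so this share was lower in each DOX library. Whether it bears on the other changes was not tested, beyond a fit that carried it as a term. Levels are in CPM, counts per 1e+06 counts, TMM-scaled except in the marker sums of this paragraph, which use library totals alone. Of 12 monocytic leukemia markers 11 were testable. With DOX 3 of the 11 were called higher, 1 lower and 7 not called, beside 8.08% higher and 7.1% lower among all genes tested. All 12 summed to between 1200 and 1296 CPM in untreated and between 1288 and 1441 CPM in DOX libraries. Markers of other cells were sparse: 4 of 15 lymphoid and 3 of 14 erythroid and megakaryocyte markers were testable, and CD3E, MS4A1, CD2 and HBB had no count in the 6 libraries. Of 15 fibroblast, endothelial and epithelial markers 3 were testable. All 15 summed to between 107 and 125 CPM in untreated and between 152 and 184 CPM in DOX libraries, with VWF, CDH5, EPCAM and COL3A1 at 0. Of the 3 testable ones, PECAM1 and KRT18 were called higher with DOX.

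Promoter sequences are shown for 3 places where neighbouring or related genes moved together: the SLITRK5 and MIR4500HG pair, the metallothionein cluster and the histone genes. They come from RefSeq (GRCh38.p14) and cover 250 bases before to 50 after each annotated start, written 5′ to 3′ on the gene's strand. In the SLITRK5 sequence (chr13:87671121-87671420, plus strand) capitals mark the stretch from the first base of MIR4500HG, which GENCODE release 29 places on the minus strand at 87671259, to the first base of SLITRK5 at 87671371 in RefSeq, 112 bases away; GENCODE release 29 starts SLITRK5 at 87672615.
SLITRK5: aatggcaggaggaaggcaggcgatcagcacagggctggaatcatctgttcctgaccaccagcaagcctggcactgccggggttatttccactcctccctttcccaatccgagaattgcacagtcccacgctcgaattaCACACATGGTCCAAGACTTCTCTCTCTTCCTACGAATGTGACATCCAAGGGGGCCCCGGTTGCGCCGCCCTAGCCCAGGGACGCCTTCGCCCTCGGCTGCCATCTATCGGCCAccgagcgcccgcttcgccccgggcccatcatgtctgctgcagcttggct
In the metallothionein sequences capitals mark every match to the core of the metal response element (TGCACNC or TGCGCNC, either strand), the site bound by the zinc-sensing factor MTF1. MT1X lies at chr16:56682220-56682519 and MT2A at chr16:56608334-56608633, both on the plus strand.
MT1X: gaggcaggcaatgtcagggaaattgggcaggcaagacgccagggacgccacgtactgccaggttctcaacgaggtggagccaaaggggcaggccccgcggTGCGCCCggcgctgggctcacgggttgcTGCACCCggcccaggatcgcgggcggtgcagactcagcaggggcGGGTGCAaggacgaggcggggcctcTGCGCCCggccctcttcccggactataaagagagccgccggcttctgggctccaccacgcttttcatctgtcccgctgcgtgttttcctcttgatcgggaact
MT2A: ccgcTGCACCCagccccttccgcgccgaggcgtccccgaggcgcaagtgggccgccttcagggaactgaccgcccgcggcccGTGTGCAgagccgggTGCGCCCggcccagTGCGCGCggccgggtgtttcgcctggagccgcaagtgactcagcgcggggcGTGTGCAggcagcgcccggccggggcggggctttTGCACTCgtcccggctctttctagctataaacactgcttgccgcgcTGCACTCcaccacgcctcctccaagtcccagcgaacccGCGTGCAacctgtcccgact
The core had 4 matches in MT1X and 8 in MT2A. At least 1 match was present in 29.4% of 27305 promoters of this length, and 3 or more in 2.27%. Among promoters of tested genes these shares were 38.4 and 3.20%. MT1X and MT2A are the 2 of 5 testable metallothionein genes for which a promoter sequence was available. In the histone sequence (H2BC21, chr1:149886633-149886932, minus strand) capitals mark the CCAAT box on either strand.
H2BC21: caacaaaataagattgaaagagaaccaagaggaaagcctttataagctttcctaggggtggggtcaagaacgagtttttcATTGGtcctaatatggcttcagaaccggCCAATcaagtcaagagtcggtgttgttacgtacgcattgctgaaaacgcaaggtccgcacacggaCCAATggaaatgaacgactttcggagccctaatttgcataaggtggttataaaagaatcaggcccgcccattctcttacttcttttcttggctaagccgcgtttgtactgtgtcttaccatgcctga
The CCAAT box was found in 31 of 34 replication-dependent histone promoters (91.2%) and in 35.7% of all 27305. The nuclear receptor half-site AGGTCA had no match in the SLITRK5 sequence and occurred in 13.9% of all promoters. A match is a description of letters only.

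NRIP1, the gene the hairpin targets (chromosome 21, positions 14961235 to 15065936, minus strand), stood at 59.7, 58.9 and 53.3 CPM in the untreated libraries and at 19.2, 14.99 and 15.7 CPM in the DOX libraries. Every DOX library was below every untreated library, and its level fell to 29.3% of the untreated mean (log2 change −1.77 ± 0.13; edgeR quasi-likelihood with Benjamini-Hochberg adjustment, adjusted p = 1.47e-07). The change held its sign and its call under all 16 other settings of the analysis, between −1.91 and −1.65 when each of the 6 libraries was left out in turn. A noncoding gene annotated inside NRIP1 in antisense (ENSG00000229047, positions 14961309 to 14964233) fell by 1.96 ± 0.23 as well, but its reads cannot be separated from those of NRIP1 without a stated strand setting. Of 6 testable genes around NRIP1, 2 were higher and none lower, beside 8.08% higher and 7.1% lower among all genes tested. SAMSN1, which encodes an adaptor of blood cells, rose from 14.99 ± 0.793 to 21.7 ± 2.16 CPM (SD, n = 3). BTG3, an antiproliferative gene, rose from 14.4 ± 1.79 to 20.03 ± 0.668 CPM. Both calls were lost without DOX replicate 2, without the pair of untreated replicate 3 and DOX replicate 3, and with the mitochondrial ribosomal RNA term, that of BTG3 also at equal depth and without untreated replicate 3.

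At an adjusted p under 0.05, 2446 of 16104 genes (15.2%) were called in DOX against untreated: 1302 higher (8.08%) and 1144 lower (7.1%). A log2 change of 1 or more in size was seen in 387 of them (2.4% of those tested), 69 higher (0.428%) and 318 lower (1.97%). The DOX and untreated libraries did not overlap for 4963 genes (30.8%). The number of calls moved with single libraries. It was 750 without untreated replicate 3, 4269 without DOX replicate 1, 639 without DOX replicate 2, 1396 without DOX replicate 3 and 170 without both of untreated replicate 3 and DOX replicate 3. With the mitochondrial ribosomal RNA share as a term in the model the count was 77, a fit in which the term and the treatment overlap, since the share was lower in each DOX library. Called in the full fit and, the same way, in each of the 6 fits without 1 library were 450 genes (2.79% of those tested), 291 higher (1.81%) and 159 lower (0.987%). Called in the full fit and under each of 16 other settings were 43 genes (0.267%), 35 higher (0.217%) and 8 lower (0.0497%); this set was picked after the values were seen, so its size and values are a description.

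**Figure D1:**
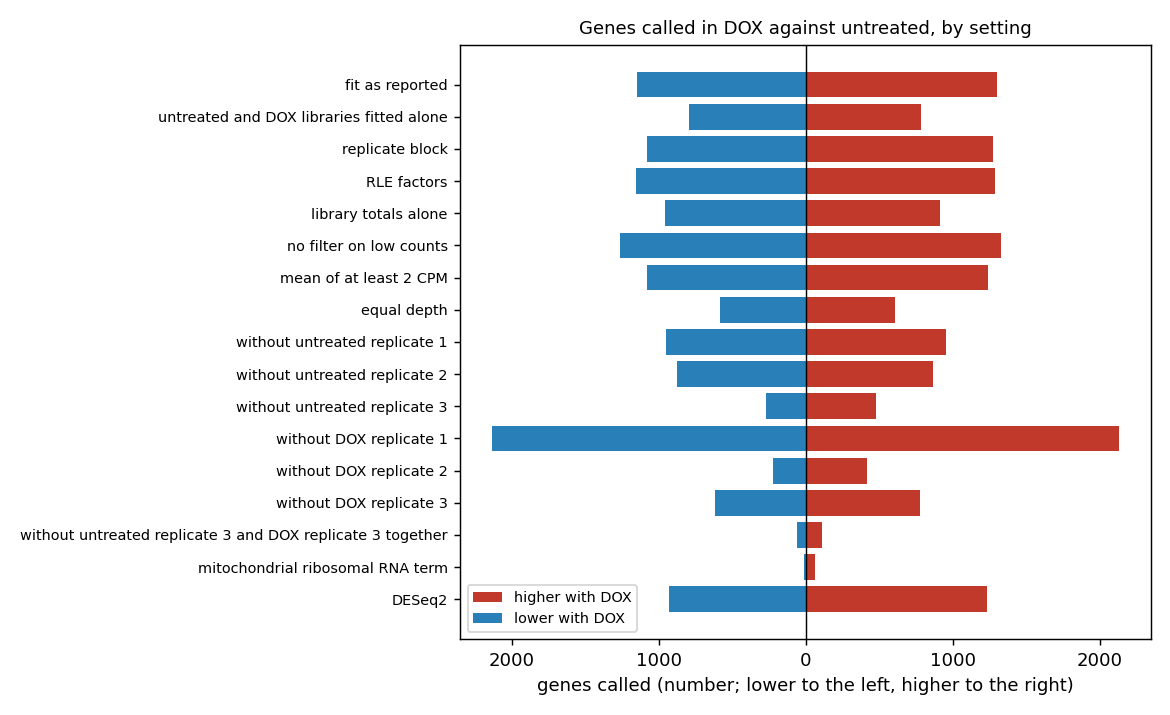
Number of genes called in DOX against untreated (horizontal axis; lower to the left, higher to the right) under the reported fit and each of 16 other settings, 1 bar pair per setting. The number ran from 77 with the mitochondrial ribosomal RNA term to 4269 without DOX replicate 1.

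The 8 genes lower under every setting were NRIP1, its antisense gene, SLITRK5, CILK1, MORF4L2, FKBP5, PPIF and RNF4. SLITRK5, which encodes a leucine-rich transmembrane protein best known from synapses, stood at 112, 122 and 113 CPM in untreated and 41.7, 31.4 and 33.02 CPM in DOX libraries (log2 change −1.70 ± 0.11, adjusted p = 6.63e-09, edgeR). MIR4500HG, the noncoding gene that starts 112 bases from the RefSeq start of SLITRK5 on the other strand, went from 4.25, 5.74 and 5.08 to 1.67, 0.769 and 0.384 CPM (−2.21 ± 0.34, adjusted p = 0.000843). Both genes were thus lower in each DOX library than in any untreated one; the MIR4500HG call was lost with the mitochondrial ribosomal RNA term, where its change was −1.93. FKBP5, a co-chaperone of steroid receptors and a classic glucocorticoid-induced gene, stood at 111, 98.99 and 92.3 CPM untreated against 76.3, 64.6 and 63.4 CPM with DOX (−0.55 ± 0.09, adjusted p = 0.00107). PPIF, which encodes cyclophilin D, a regulator of the mitochondrial permeability transition pore, stood at 190.0, 190.4 and 173 CPM untreated against 122, 138 and 123 CPM with DOX (−0.52 ± 0.08, adjusted p = 0.00089). In neither gene did the groups overlap. MORF4L2, a chromatin protein of the MRG family, fell from 113 ± 9.86 to 74.1 ± 7.86 CPM (−0.60 ± 0.10, adjusted p = 0.000905). The SUMO-targeted ubiquitin ligase gene RNF4 fell from 75.02 ± 3.25 to 57.4 ± 2.03 CPM (−0.39 ± 0.08, adjusted p = 0.00479). CILK1, a ciliary kinase gene, fell from 23.8 ± 1.81 to 14.5 ± 0.261 CPM (−0.70 ± 0.11, adjusted p = 0.00104). Within each of these 3 genes the DOX libraries again all lay below the untreated ones.

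The 35 genes higher under every setting included CD52, SUCNR1, PTAFR and SELENOP. CD52, a glycolipid-anchored antigen of leukocytes, stood at 2.22, 2.83 and 3.204 CPM in untreated and 10.3, 8.51 and 13.1 CPM in DOX libraries, the largest increase among the 35 (1.85 ± 0.23, adjusted p = 0.000125, edgeR). SUCNR1, the receptor for succinate, stood at 4.15, 5.74 and 4.97 CPM untreated against 14.1, 10.5 and 16.9 CPM with DOX (1.37 ± 0.16, adjusted p = 6.41e-05). PTAFR, the receptor for platelet-activating factor, stood at 6.09, 6.17 and 6.795 CPM untreated against 15.1, 13.6 and 14.6 CPM with DOX (1.17 ± 0.19, adjusted p = 0.000947). None of the 3 genes had a DOX library within the untreated range. GPR183, an oxysterol receptor that guides immune cell migration, rose by 1.03 ± 0.17 and CD244, a SLAM-family receptor, by 0.80 ± 0.12. The tetraspanin gene CD82 rose by 0.94 ± 0.15, and the adhesion genes ICAM3 and PECAM1 rose by 0.91 ± 0.11 and 0.70 ± 0.10. NFAM1, a receptor with an activation motif, rose by 0.72 ± 0.12, and LY86, which encodes the MD-1 partner of a toll-like receptor homolog, by 0.79 ± 0.15. Among secreted proteins, SELENOP, the selenium carrier, went from 3.77, 4.54 and 4.199 to 10.7, 10.2 and 9.21 CPM (1.29 ± 0.17, adjusted p = 0.000189). CCDC152, which overlaps SELENOP on the other strand and may share its reads, rose by 1.44 ± 0.20. The groups did not overlap in either. APOL1, an apolipoprotein of innate defence, rose by 1.40 ± 0.28, LRG1 by 0.77 ± 0.10 and ECM1 by 0.64 ± 0.09.

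DHRS9, CDKN1A and GLO1 were also among the 35. DHRS9, a short-chain dehydrogenase that can act on retinol, stood at 20.9, 21.5 and 19.9 CPM in untreated and 63.2, 50.7 and 60.7 CPM in DOX libraries (1.48 ± 0.12, adjusted p = 3.24e-07, edgeR). CDKN1A, the p21 inhibitor of cyclin-dependent kinases, stood at 257, 234 and 237 CPM untreated against 435, 395 and 466 CPM with DOX (0.83 ± 0.09, adjusted p = 2.68e-05). GLO1, glyoxalase 1, which detoxifies methylglyoxal, stood at 336, 327 and 284 CPM untreated against 577, 539 and 615 CPM with DOX (0.87 ± 0.10, adjusted p = 6.41e-05). The lowest DOX library exceeded the highest untreated library in all of them. CTSL, the lysosomal protease cathepsin L, rose by 1.09 ± 0.17 and FURIN, a proprotein convertase, by 0.72 ± 0.09. ACSL1, which activates long-chain fatty acids, rose by 0.61 ± 0.10 and IDH1, the cytosolic isocitrate dehydrogenase, by 0.57 ± 0.09. GSN, the actin-severing gelsolin, rose by 0.80 ± 0.10, RAB37, a secretory granule GTPase, by 1.01 ± 0.14, and SERPINB1, an inhibitor of neutrophil proteases, by 0.55 ± 0.09. LMO2, a hematopoietic transcriptional adaptor, rose by 0.72 ± 0.09, and PREB, which starts vesicle export from the endoplasmic reticulum, by 0.59 ± 0.08. CHCHD7 (0.81 ± 0.09), TGM5 (0.84 ± 0.14), SMIM14 (1.06 ± 0.14), STYXL1 (0.73 ± 0.13), IL10RB-DT (0.58 ± 0.11), FAM107B (0.50 ± 0.08) and TMEM104 (0.49 ± 0.09) completed the set with MT1E, described with its family. Adjusted p lay between 2.68e-05 and 0.00424 for the genes of these 2 paragraphs other than DHRS9. The AGGTCA half-site was found in 6 of the 28 of these 35 genes with a RefSeq promoter (21.4%). It was found in 9.93% of promoters of tested genes and in 13.9% of all promoters. Of the genes lower under every setting, 0 of 5 with a promoter had it. These shares were not tested against each other.

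**Figure D2:**
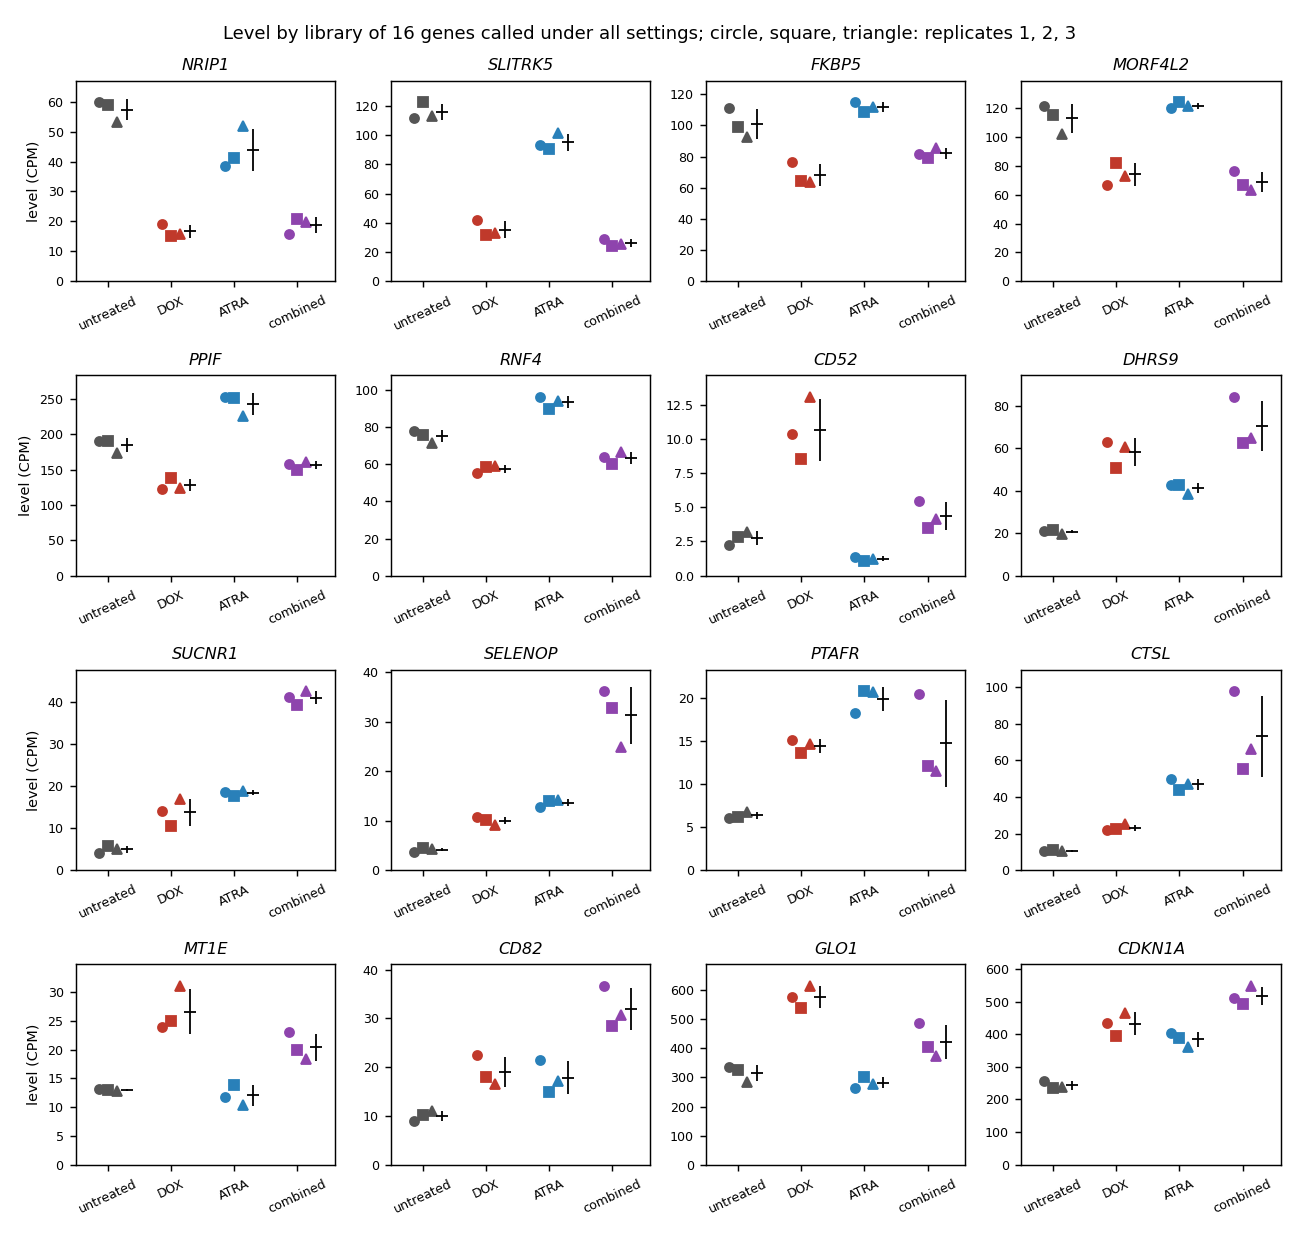
Level in CPM (vertical axes, each from 0) of 16 of the genes called under every setting in the untreated, DOX, ATRA and combined libraries; symbols are replicates 1 to 3 and the bar beside them is mean ± SD. NRIP1 stayed at or below 19.2 CPM in the DOX libraries against 53.3 CPM or more in untreated ones, and the DOX and untreated libraries did not overlap for any of the genes drawn.

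Further large increases were called in each fit without 1 library but not under every setting. CXCR3, a chemokine receptor, stood at 0.8696, 1.11 and 1.16 CPM untreated against 3.18, 3.18 and 3.84 CPM with DOX (1.62 ± 0.30, edgeR adjusted p = 0.00229) and was not called at equal depth or with the mitochondrial ribosomal RNA term. FCER2, the low-affinity IgE receptor CD23, stood at 2.71, 2.74 and 3.37 CPM untreated against 9.79, 5.22 and 9.599 CPM with DOX (1.35 ± 0.34, adjusted p = 0.0129). CCNA1, a cyclin active in meiosis and in myeloid leukemia, stood at 2.802, 4.46 and 3.37 CPM untreated against 10.98, 6.15 and 9.21 CPM with DOX (1.27 ± 0.23, adjusted p = 0.00201). FCER2 and CCNA1 lost their calls without the pair of untreated replicate 3 and DOX replicate 3. TCF23, a bHLH factor, had 1.20 ± 0.27 and BPI, a bactericidal granule protein, 1.17 ± 0.18; the TCF23 call was lost at equal depth, without the pair and with the term, the BPI call with the term. The other large decreases were H2BC14, H2BC13, H3C2, H2BC21, H2BC5 and H2AC8, all histone genes, the transporter gene SLC16A4 (−1.70 ± 0.35), SCART1 (−1.58 ± 0.28), NOTCH2NLC (−1.49 ± 0.28) and a MATR3 entry (−1.46 ± 0.28). The last pair and the histone genes have near-identical copies, so their counts are uncertain. None of these 10 was called with the mitochondrial ribosomal RNA term.

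Whether the same genes respond to DOX when ATRA is present was read from the combined group against ATRA alone, 6 libraries that share none with the comparison above. The mitochondrial ribosomal RNA share was lower in each combined library (1.98, 2.02 and 1.23%) than in any ATRA library (2.09, 2.74 and 2.64%). Combined against ATRA was not fitted with this share as a term, so both comparisons have the same imbalance. In combined against ATRA 713 genes were called (4.43%), 304 higher (1.89%) and 409 lower (2.54%). Of the 43 genes called under every setting without ATRA, 29 (67.4%) were called in the same direction and none in the opposite one. All 8 lower genes were among them, with a median log2 change of −0.65 without ATRA and −0.73 with it. Of the 35 higher genes 21 were among them, with medians of 0.81 and 0.44. Of all 2446 genes called without ATRA, 289 were called the same way, which is 11.8% of them and 40.5% of the 713, and 4 were called in the opposite direction. In the presence of ATRA, SLITRK5 (−1.85 ± 0.10), MORF4L2 (−0.82 ± 0.09) and PPIF (−0.64 ± 0.08) fell (edgeR adjusted p = 1.08e-09, 1.95e-05 and 6.46e-05). CD52 rose by 1.80 ± 0.27, SELENOP by 1.21 ± 0.13, SUCNR1 by 1.15 ± 0.12 and DHRS9 by 0.77 ± 0.11 (edgeR adjusted p = 0.000332, 7.86e-06, 7.86e-06 and 0.000193). MIR4500HG fell by 2.01 ± 0.35 there (adjusted p = 0.00143). TGM5 (0.03 ± 0.11), CHCHD7 (0.06 ± 0.09), LY86 (−0.08 ± 0.15) and PTAFR (−0.40 ± 0.16) were not called there. The test of the difference between both DOX effects passed for 43 of 16104 genes (0.267%), among them 3 of the 35, PTAFR, CHCHD7 and IL10RB-DT. It did not pass for TGM5 (adjusted p = 0.0526), LY86 (adjusted p = 0.0882) or DHRS9 (−0.70 ± 0.16, adjusted p = 0.0746), by edgeR. Levels after ATRA alone can only be set side by side, since both comparisons would use the untreated libraries. ATRA libraries averaged 18.4 ± 0.579 CPM for SUCNR1, 46.9 ± 2.95 for CTSL and 1.24 ± 0.168 for CD52, against 13.8 ± 3.21, 23.1 ± 1.67 and 10.6 ± 2.29 CPM in DOX libraries (SD, n = 3). NRIP1 stood at 38.4, 41.1 and 51.9 CPM in the ATRA libraries, each below all untreated libraries, a difference that was not tested.

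**Figure D3:**
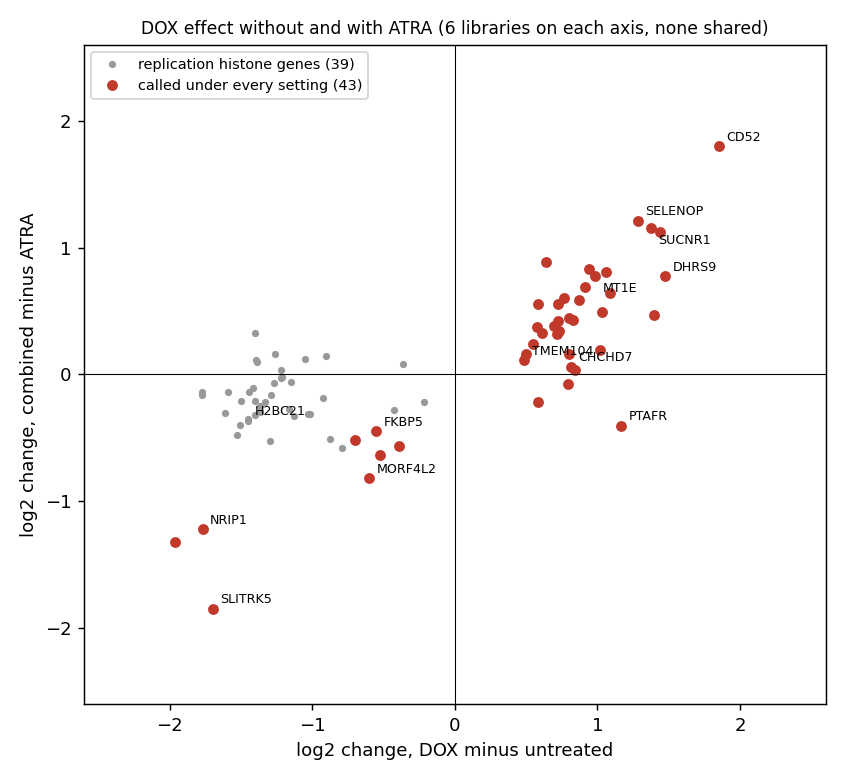
Log2 change with DOX in the absence of ATRA (horizontal axis) and in its presence (vertical axis) for the 43 genes called under every setting (red) and 39 replication-dependent histone genes (grey). All 8 lower red points lie in the lower left quadrant and 32 of the 35 higher ones above 0, while the histone genes spread around −0.21 on the vertical axis.

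Genes of the machinery around RIP140 included 1 large decrease, that of LCOR. Of 37 nuclear receptor coregulator and partner genes besides NRIP1, 1 rose and 5 fell (median −0.07, against 0.01 over all genes tested, of which 15.2% were called). LCOR, a ligand-dependent corepressor related to RIP140 in how it binds receptors, stood at 89.1, 89.6 and 119.7 CPM in untreated and 54.4, 32.7 and 34.2 CPM in DOX libraries (−1.27 ± 0.18, edgeR adjusted p = 0.000324). It was lower in the combined group than in ATRA alone as well (−0.99 ± 0.17, adjusted p = 0.00144), and its call was lost with the mitochondrial ribosomal RNA term (−0.55). The acetyltransferase gene CREBBP fell by 0.46 ± 0.10, a call lost with the term and without the pair of untreated replicate 3 and DOX replicate 3. Of 19 genes linked to RIP140 in metabolic tissue, 1 rose: ESRRA, the estrogen-related receptor alpha, which is also the gene that rose among the 37, from 88.1 ± 4.58 to 113 ± 2.98 CPM (0.36 ± 0.08, adjusted p = 0.00864), lost without the pair and with the term. Of 14 circadian clock genes 0 were called by edgeR or by DESeq2, with 3 at an unadjusted p under 0.05. Of 20 NF-kB and inflammatory genes, 3 rose and 1 fell (median 0.23). TNF rose from 12.7 ± 0.232 to 19.2 ± 1.89 CPM (0.58 ± 0.14), and TNFAIP3, the A20 inhibitor of NF-kB, fell from 25.4 ± 0.751 to 16.6 ± 2.91 CPM (−0.64 ± 0.15). None of the 4 calls was kept without the pair or with the term, and that of TNFAIP3 was also lost without DOX replicate 2.

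Many nuclear genes for mitochondrial proteins rose, while no protein gene of mitochondrial DNA was called. The shares over all genes tested were 8.08% higher and 7.1% lower. Of 36 complex I genes 20 rose (median log2 change 0.42), of 26 genes of complexes II to IV 17 rose (0.39) and of 17 ATP synthase genes 11 rose (0.39), none of the 79 falling. NDUFB9, a complex I subunit, stood at 186, 199 and 197 CPM in untreated and 255, 280.2 and 289.5 CPM in DOX libraries (0.50 ± 0.08, edgeR adjusted p = 0.000905). ATP5MK, a small ATP synthase subunit, stood at 155, 156 and 152 CPM untreated against 195, 261 and 276 CPM with DOX (0.65 ± 0.10, adjusted p = 0.000905). COX5B, of cytochrome c oxidase, stood at 154, 164 and 148 CPM untreated against 186, 267 and 237 CPM with DOX (0.57 ± 0.11, adjusted p = 0.00314). In these 3 genes DOX replicate 1 was the lowest of its group yet above all untreated libraries. Of 76 mitochondrial ribosomal protein genes 38 rose (median 0.33), MRPL24 by 0.44 ± 0.08, and of 79 cytosolic ribosomal protein genes 14 rose (0.22), RPL26 by 0.84 ± 0.16. Relative to the untreated mean, the median of the cytosolic list was −0.10 in DOX replicate 1, below each untreated library, and 0.42 and 0.30 in DOX replicates 2 and 3. The 13 proteins encoded in mitochondrial DNA had 0 calls by edgeR and by DESeq2, 3 at an unadjusted p under 0.05, and a median of −0.07. In the combined group against ATRA 5 of them fell (median −0.48). Citric acid cycle genes rose at 4 of 19, calls of which none held in each fit without 1 library. Fatty acid oxidation genes, some of which RIP140 represses elsewhere, rose at 6 and fell at 1 of 27 (median 0.17), with ECHS1 at 0.42 ± 0.08 and ACAA1 at 0.38 ± 0.09, the latter not called at equal depth or without DOX replicate 2. The gene that fell was PPARGC1B (−0.45 ± 0.12, edgeR adjusted p = 0.0155). Its call was lost at equal depth, without untreated replicate 3 and without DOX replicate 2. Without the pair of untreated replicate 3 and DOX replicate 3 the number called was 4 in complex I, 0 in complexes II to IV, 2 in ATP synthase and 0 in the ribosomal, citric acid cycle and fatty acid oxidation lists, and with the mitochondrial ribosomal RNA term it was 0 in each, with medians of 0.10, 0.09, 0.04, 0.07, −0.14, −0.05 and 0.09 (complex I, complexes II to IV, ATP synthase, mitochondrial and cytosolic ribosome, citric acid cycle, fatty acid oxidation).

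Calls among proteasome and heat shock genes were all upward, where 8.08% of all genes tested rose and 7.1% fell. Of 33 proteasome genes 23 rose and none fell (median 0.35), PSMC2 by 0.50 ± 0.09 and PSMA5 by 0.51 ± 0.09. Of 14 cytosolic heat shock genes 7 rose (0.32). HSPA1B, an inducible HSP70 with a near-identical copy, stood at 12.5, 10.03 and 10.9 CPM in untreated and 19.1, 21.03 and 21.9 CPM in DOX libraries (0.88 ± 0.13, edgeR adjusted p = 0.00053), and BAG3, its co-chaperone, rose by 0.68 ± 0.11. The mitochondrial chaperonin partner HSPE1 rose by 0.79 ± 0.13. Of 25 endoplasmic reticulum folding genes 9 rose, with MANF at 0.47 ± 0.08 and XBP1 at 0.44 ± 0.09. Integrated stress response genes rose at 0 and fell at 5 of 34 (median −0.05), including ALDH1L2, a mitochondrial folate enzyme (−0.54 ± 0.10), STC2 (−1.05 ± 0.22) and the cystine carrier SLC7A11 (−0.67 ± 0.16). Of 22 redox genes 8 rose and 1 fell, with catalase (CAT) at 0.53 ± 0.10 and malic enzyme 1 (ME1) at 0.98 ± 0.18. With the mitochondrial ribosomal RNA term none of these lists had a call. Without the pair the proteasome had 0, heat shock 2 (HSPA1B and BAG3), endoplasmic reticulum folding 1 (MANF), integrated stress 1 (STC2) and redox 0. The calls of STC2 and SLC7A11 were also lost without DOX replicate 2, and that of SLC7A11 without untreated replicate 3.

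Metallothioneins, small zinc- and copper-binding proteins induced through MTF1, rose in all 5 testable genes; the family was picked after its values were seen. Their log2 changes lay between 0.81 and 0.99. MT1E stood at 13.1, 13.03 and 12.9 CPM in untreated and 23.9, 24.9 and 31.1 CPM in DOX libraries (0.99 ± 0.13, edgeR adjusted p = 0.000232). MT2A stood at 16.1, 16.3 and 13.4 CPM untreated against 25.2, 23.6 and 36.9 CPM with DOX (0.83 ± 0.20, adjusted p = 0.00919). MT1F rose by 0.86 ± 0.15, MT1G by 0.94 ± 0.22 and MT1X by 0.81 ± 0.27, and the groups overlapped for none of the 5. MT1E passed under every setting, MT1F under all but the mitochondrial ribosomal RNA term, and MT1X under only 4 of 16. MT1G and MT2A lost their calls without untreated replicate 3, without the pair and with the term. In the combined group against ATRA, MT1E rose by 0.78 ± 0.13 and the other 4 had changes between 0.44 and 0.75 that were not called. Because the genes lie close together in 1 cluster and are alike in sequence, they are not independent measurements.

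Myeloid granule and antigen presentation genes rose in several cases. Among all genes tested 8.08% rose and 7.1% fell. Of 14 azurophil granule genes 11 rose and none fell (median 0.53). MPO, myeloperoxidase, stood at 152, 148 and 159.9 CPM in untreated and 252, 216 and 279.9 CPM in DOX libraries (0.69 ± 0.14, edgeR adjusted p = 0.00373). PRTN3, proteinase 3, stood at 658, 714 and 755 CPM untreated against 1064, 1055 and 1343 CPM with DOX (0.70 ± 0.13, adjusted p = 0.00221). The groups did not overlap in either gene, and both calls were lost without the pair but kept with the term. With ATRA present MPO rose by 1.13 ± 0.14 (adjusted p = 4.2e-05), and PRTN3 had 0.17 ± 0.13 (adjusted p = 0.501). RNASE2 rose by 0.61 ± 0.11. Of 17 class I antigen presentation genes 9 rose (median 0.31), including the 3 inducible proteasome subunits PSMB9 (0.66 ± 0.10), PSMB10 (0.65 ± 0.11) and PSMB8 (0.45 ± 0.09). Of 42 interferon-stimulated genes 4 rose, close to the share of all genes tested, with BST2 at 0.60 ± 0.09. IRF1 rose by 0.49 ± 0.08. Of 30 lysosome genes 10 rose, including CTSL and the ceramidase gene ASAH1 (0.49 ± 0.09). Of 18 mature myeloid genes 4 rose and 1 fell, with NCF1, an oxidase subunit with near-identical copies, at 0.53 ± 0.14 and FCGR1A at 0.65 ± 0.13, NCF1 not being called without DOX replicate 2. Of 22 genes for myeloid transcription factors 2 rose and 1 fell, with RUNX1 at −0.43 ± 0.10 and SPI1 at 0.28 ± 0.08, the latter called in 5 of the 16 other settings. RUNX1 lost its call without the pair and with the term, and IRF1 with the term. Of 23 HOX and stem cell genes 1 rose and 2 fell. Without the pair 2 azurophil, 2 class I, 1 interferon, 2 lysosome, 0 mature myeloid and 1 transcription factor genes were called, and with the term 3, 0, 0, 1, 0 and 0.

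Several p53 targets rose beside CDKN1A. Of 27 p53 targets 7 rose and none fell (median 0.19), with BTG2, an antiproliferative gene, at 0.70 ± 0.14, TRIAP1 at 0.49 ± 0.10 and SESN1 at 0.37 ± 0.09. Among 44 DNA replication genes 1 rose and 5 fell, POLA1, the catalytic subunit of polymerase alpha, from 56.4 ± 1.52 to 36.6 ± 1.13 CPM (−0.62 ± 0.09, edgeR adjusted p = 0.000324). Among 37 mitosis genes 1 rose and 2 fell, CENPF (−0.69 ± 0.10) and MKI67, which encodes Ki-67 (−0.63 ± 0.12); over all genes tested 8.08% rose and 7.1% fell. With the mitochondrial ribosomal RNA term no gene of either list was called. The median went from −0.11 to −0.29 for DNA replication, with 25 of 44 genes at an unadjusted p under 0.05 against 11 without the term. For mitosis genes it went from −0.00 to −0.23, with 12 of 37 against 7. Term and treatment overlap in that fit and genes of a list may vary together, so these counts are a description only. CDK6, a G1 kinase gene, fell by 0.50 ± 0.11. Of 30 apoptosis genes 5 rose and 3 fell: BIK, a BH3-only gene, rose by 0.59 ± 0.10, BCL2A1 by 1.84 ± 0.40 from a level under 1 CPM, and BCL2 fell from 128 ± 3.33 to 92.5 ± 13.7 CPM (−0.45 ± 0.09, adjusted p = 0.00476). Without the pair only 1 p53 target (CDKN1A), POLA1 and CENPF kept their calls among those named here, and with the term CDKN1A and BTG2. TRIAP1 and SESN1 also lost theirs without DOX replicate 2, SESN1 without untreated replicate 3 and BTG2 at equal depth.

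Replication-dependent histone genes, whose messenger RNAs typically end in a stem-loop and carry no poly(A) tail, had the lowest median of all lists. Of 39 testable genes 34 fell and none rose (median −1.30), against 0 of 9 called by edgeR among replication-independent histone genes (0.05), with 2 at an unadjusted p under 0.05 and 1 called by DESeq2. H2BC21 stood at 15.2, 19.6 and 24.1 CPM in untreated and 8.84, 6.42 and 5.38 CPM in DOX libraries (−1.45 ± 0.20, edgeR adjusted p = 0.000324). H3C2 stood at 9.56, 15.3 and 15.7 CPM untreated against 5.65, 4.28 and 4.22 CPM with DOX (−1.50 ± 0.25, adjusted p = 0.00118). H1-4 stood at 17.97, 21.6 and 25.1 CPM untreated against 12.4, 7.47 and 6.91 CPM with DOX (−1.22 ± 0.22, adjusted p = 0.00194). In all 3, untreated replicate 3 was the highest library, and DOX replicate 1 was nearest to the untreated ones. The list median, relative to the untreated mean, was −0.43, 0.05 and 0.36 in the untreated and −0.67, −1.43 and −1.39 in the DOX libraries, so it spread within groups as well as between them. In the ATRA libraries it was −0.83, −0.61 and −1.01, and in the combined libraries −1.06, −0.68 and −1.21. Combined against ATRA gave 0 calls by edgeR and by DESeq2, 1 gene at an unadjusted p under 0.05, and a median of −0.21. Of the 34 calls, 14 held in each fit without 1 library, 4 without the pair and 0 with the mitochondrial ribosomal RNA term, where the median was −0.39 and 5 genes had an unadjusted p under 0.05.

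**Figure D4:**
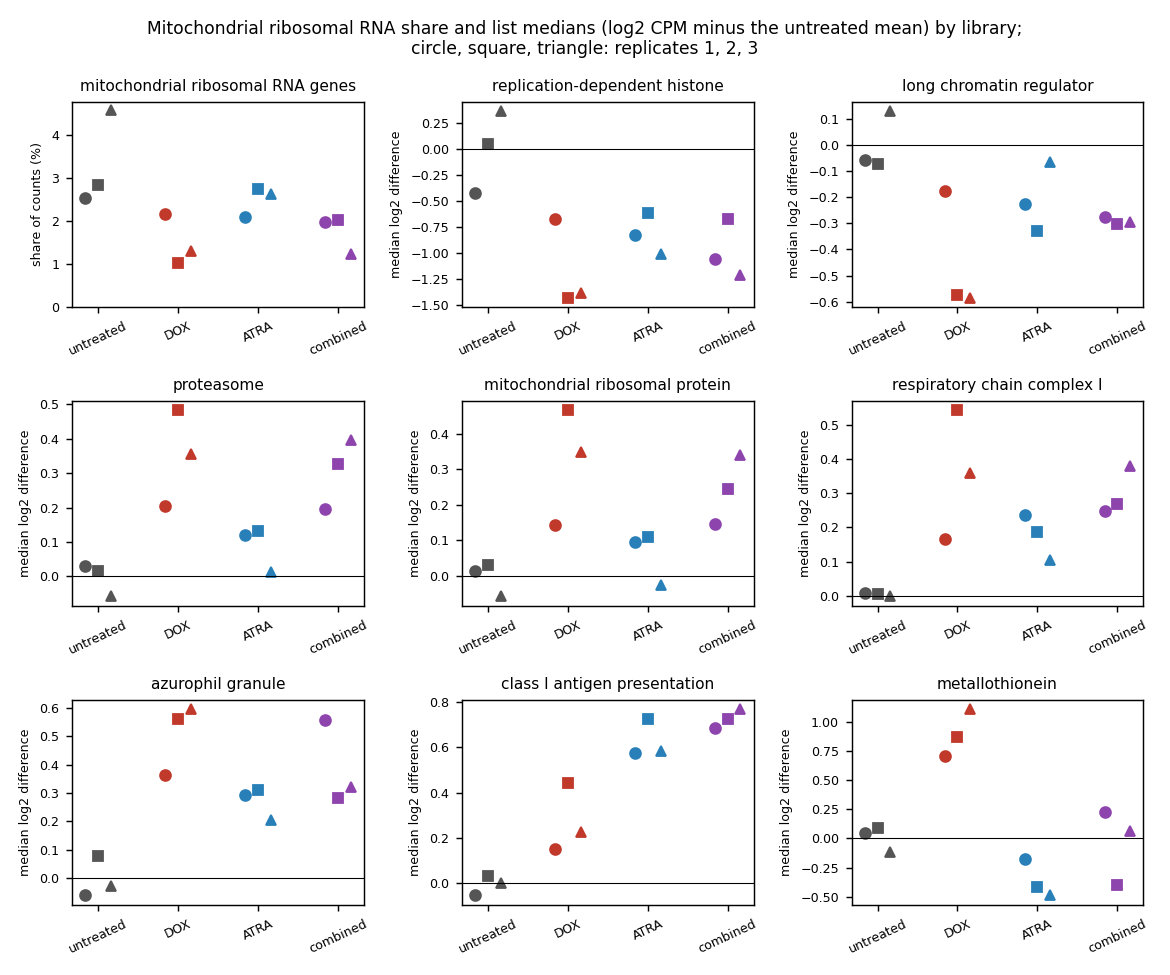
Share of counts on the mitochondrial ribosomal RNA genes (first panel, percent) and median over each of 8 gene lists of log2 CPM minus the untreated mean (other panels) by group; symbols are replicates 1 to 3. The histone median runs from 0.36 in untreated replicate 3 to −1.43 in DOX replicate 2, and DOX replicate 1 lies nearest the untreated libraries in each list panel.

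Calls among long transcripts were mostly downward, where 8.08% of all genes tested rose and 7.1% fell. Of 41 genes for long chromatin regulators 29 fell and none rose (median −0.41), BPTF, a remodeller subunit, from 113 ± 10.6 to 69.7 ± 15.7 CPM (−0.67 ± 0.12, edgeR adjusted p = 0.00145), and with them EP400 (−0.53 ± 0.10) and KMT2A, the gene rearranged in this line (−0.65 ± 0.14). The list median was −0.17 in DOX replicate 1 and −0.58 in both other DOX libraries. Of 18 nuclear long noncoding RNA genes 7 fell and 1 rose, SNHG14 at −0.72 ± 0.15. Of 14 genes of the RNA interference machinery, through which the hairpin acts, 4 fell: AGO2 stood at 227, 216 and 248 CPM untreated against 195, 116 and 134 CPM with DOX (−0.62 ± 0.14, adjusted p = 0.00602), and TNRC6B, an Argonaute partner, fell by 0.64 ± 0.15. The groups did not overlap in AGO2, though DOX replicate 1 came near the untreated libraries. Over all genes, those of the longest quartile by exonic length (6745 bases or more) were called lower in 14.7% and higher in 3.17% of cases, while the second quartile (2250 to 4183 bases) had 3.22 and 11.9%. The median exonic length was 7091 bases for genes called lower, 3131 for genes called higher and 4183 for all genes tested. The median change of the longest quartile was −0.11, and −0.01 with the mitochondrial ribosomal RNA term. Leaving out untreated replicate 3 or DOX replicate 2 ended the calls of KMT2A and TNRC6B. None of the long chromatin regulator, nuclear noncoding or RNA interference genes was called without the pair or with the mitochondrial ribosomal RNA term.

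**Figure D5:**
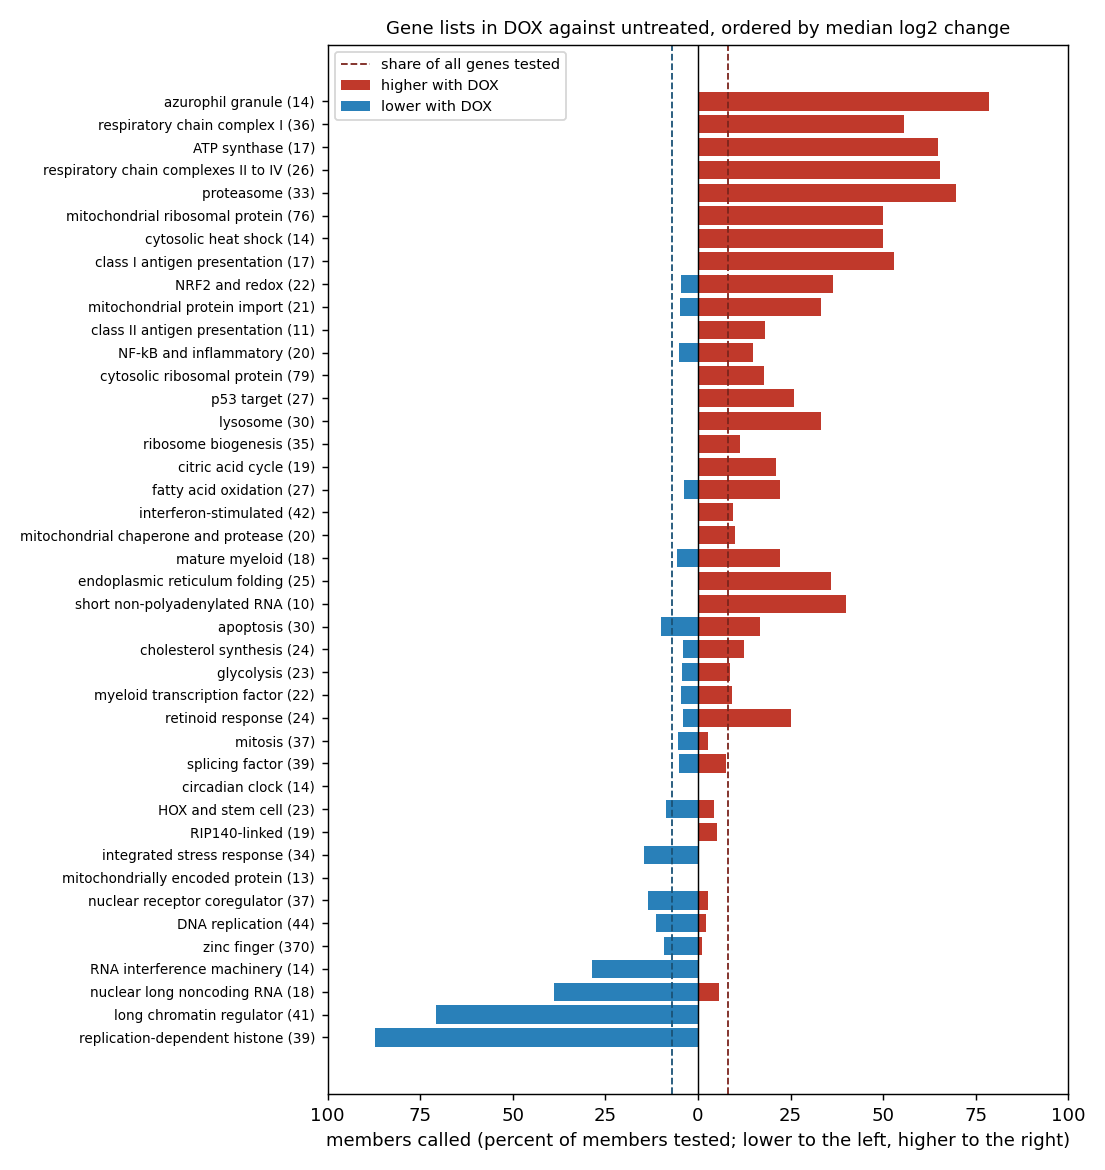
Percent of testable members called higher (right) or lower (left) in DOX against untreated for each gene list of 10 or more testable genes, cell type marker lists left out. The number of members is in brackets, and dashed lines are the shares over all genes tested, 8.08 and 7.1%. Replication-dependent histone genes (34 of 39 lower) and azurophil granule genes (11 of 14 higher) stand at the ends of the order by median.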

How the data were processed

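Paired-end libraries of MOLM14 RNA were read on a NovaSeq, per the labels. The authors deposited raw integer counts for each gene and sample; FastQC, STAR and HTSeq with GRCh38 are named in the submitters' processing notes. Versions, annotation release and strand setting are not given in the sources used here. The table held 61487 identifiers, of which 61369 matched a gene-name table and 58312 GENCODE release 29, the source of coordinates, and 23 empty columns.

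The 12 libraries were fitted together with edgeR 4.0.16 in R 4.3.3: filterByExpr, TMM, 4 group means with 8 residual degrees of freedom, quasi-likelihood F tests and Benjamini-Hochberg adjustment over 16104 genes at 0.05. The fit was tested on simulated data first. Errors of log2 changes are standard errors implied by F. Contrasts were DOX against untreated, combined against ATRA, and their difference. Library totals differed up to 7.21-fold among the 6 compared, and counting error is largest in DOX replicate 3.

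Alternatives were both groups fitted alone, a replicate block, other scaling, other filters on low counts, equal depth by thinning, leaving out each library or a pair, a mitochondrial ribosomal RNA term and DESeq2 1.42.0. Named genes are NRIP1, the 12 largest increases and decreases that held without each library in turn, had no overlap and a mean of at least 2 CPM, and up to 4 called members per list; the genes called under every setting were added after seeing their values. The members and the 48 lists were chosen with earlier results of these data known; lists were described by counts and medians. Lists not named in the results had 7 higher and 1 lower of 21 (mitochondrial protein import), 2 and 0 of 20 (mitochondrial chaperones and proteases), 2 and 1 of 23 (glycolysis), 3 and 1 of 24 (cholesterol synthesis), 2 and 0 of 11 (class II antigen presentation), 6 and 1 of 24 (retinoid response), 4 and 0 of 35 (ribosome biogenesis), 3 and 2 of 39 (splicing factors) and 4 and 0 of 10 (short RNAs without poly(A)). Genes with a ZNF symbol (zinc finger) had 4 higher and 34 lower of 370, with a median of −0.13. None of these zinc finger calls was kept without the pair or with the mitochondrial ribosomal RNA term. Among all genes tested 8.08% were higher and 7.1% lower.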

Additional observations from a re-analysis of the deposited data

Results flagged for a closer look

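The DOX effect differed between cells without and with ATRA, by the test of the difference itself (edgeR quasi-likelihood, adjusted over all genes, n = 3 per group), for the 8 genes given here. Of these, HLA-DQB1 and CD38 were not named in the results above. PTAFR, the platelet-activating factor receptor gene, rose by 1.17 ± 0.19 without ATRA and had −0.40 ± 0.16 with it, a difference of −1.57 ± 0.25 (adjusted p = 0.00739). HLA-DQB1, a class II antigen chain, stood at 0.773, 1.11 and 1.38 CPM in untreated and 1.99, 4.12 and 1.92 CPM in DOX libraries (1.40 ± 0.31) and fell by 1.23 ± 0.20 with ATRA, a difference of −2.63 ± 0.36 (adjusted p = 0.00251). Its rise was not called without DOX replicate 2, where the level was highest, at equal depth or with the mitochondrial ribosomal RNA term. Reads of this polymorphic gene may be shared with its relatives. Of 11 testable class II genes, 10 fell in the combined group against ATRA (median −1.58), beside 2.54% of all genes tested. The test of the difference passed for 4 of the 11, HLA-DQB1 among them, beside 0.267% of all genes.

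BTG2 (0.70 ± 0.14 without and −0.25 ± 0.12 with ATRA) differed by −0.95 ± 0.19 and the eosinophil-type ribonuclease gene RNASE2 (0.61 ± 0.11 and −0.15 ± 0.11) by −0.76 ± 0.15. CD38, the NAD-consuming ectoenzyme gene, rose by 0.57 ± 0.12 without ATRA and had −0.20 ± 0.09 with it (difference −0.77 ± 0.16). CHCHD7 (0.81 ± 0.09 and 0.06 ± 0.09) differed by −0.75 ± 0.12 and IL10RB-DT (0.58 ± 0.11 and −0.21 ± 0.09) by −0.80 ± 0.14. BCL2, the anti-apoptotic gene, went the other way: it fell by 0.45 ± 0.09 without ATRA and had 0.37 ± 0.11 with it, a difference of 0.82 ± 0.15. Adjusted p for these 6 lay between 0.0103 and 0.032.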

How the results depend on the processing

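The number of genes called in DOX against untreated was 2446 (1302 higher, 1144 lower). It was 1577 with both groups fitted alone (784 higher), 1189 at equal depth (606 and 583), 77 with the mitochondrial ribosomal RNA term (66 and 11) and 170 without the pair of untreated replicate 3 and DOX replicate 3 (114 and 56). Leaving out 1 library gave 639 to 4269 calls (419 to 2133 higher, 220 to 2136 lower), lowest without DOX replicate 2 and highest without DOX replicate 1. Calls of at least 1 on the log2 scale, 387, were 602 with no filter on low counts, 206 above a mean of 2 CPM, 185 at equal depth, 30 without the pair, 35 with the term, 228 with DESeq2 and 89 to 876 without 1 library. The difference between both DOX effects called 43 genes, 117 with DESeq2 and 11 to 751 without 1 library. No other setting moved the counts of DOX against untreated by over 1.5 times. The difference between both DOX effects was refitted only with the replicate block, without each library in turn and with DESeq2.

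The replicate numbers did not pair the samples: same-numbered untreated and DOX libraries had deviations correlated at −0.21, 0.12 and −0.07. With the replicate block 2349 genes were called, 2212 of them shared with the reported fit, and the difference between both DOX effects called 54. NRIP1 changed by −1.76 with the block, by −1.91 to −1.65 without 1 library and by −1.96 at equal depth, and was called throughout. Depth limits what DOX replicate 3 can show for genes of a few CPM.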
